A study of Mus musculus with 64 samples.

Results

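The genes Drd2, Adora2a, Penk, Ppp1r1b, Tac1, Rgs9 and Pde10a are used as marks of striatal neurons, and every probe of these 7 genes was followed through the brain arrays as a check on regional content and dissection. Of the 7 genes, 5 had a probe named here, with 7 probes of the 25697 on the array. Ppp1r1b had 3 probes, and Drd2, Tac1, Rgs9 and Pde10a had 1 each. Adora2a and Penk were not analysed here. The series held 64 Illumina bead arrays of brain, liver, spleen and thymus, and the 16 brain arrays form 4 groups of 4. The groups were Hmgn2-/- mice with the strain label C57BL/6, wild types with the strain label C57BL/6, Hmgn1-/-n2-/- mice with the strain label C57BL/6J, and wild types with the strain label C57BL/6J. All were males of 21 weeks. Each brain array was taken as a mouse of its own: wild-type titles carry a letter each, knockout titles only a replicate number. Hmgn1 and Hmgn2 encode small proteins that bind nucleosomes. The labels name the tissue only as brain and do not say which regions were taken.

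The striatum is the input nucleus of the basal ganglia, and most of its cells are GABA-releasing projection neurons. They fall into a class that projects directly to the output nuclei and carries substance P, made from the Tac1 product, and a class that projects indirectly and carries the dopamine D2 receptor, encoded by Drd2. Both classes hold Ppp1r1b, a phosphatase inhibitor also called DARPP-32, Rgs9, which shortens signalling by G proteins, and Pde10a, which breaks down cyclic nucleotides. None of these genes is confined to the striatum: Tac1, for example, is also used by hypothalamic neurons.

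The starts of Tac1 and Drd2 are shown because these genes mark the separate projection classes. Each sequence is the 250 bases before the start used in the RefSeq promoter table, on the plus strand of GRCm38.p6, at chr6:7554811-7555060 for Tac1 and chr9:49340153-49340402 for Drd2. The Drd2 window runs past 49340360, where the RefSeq gene span begins, so its start is not the outermost one. Capitals mark matches to the cyclic AMP response half-site TGACG or its reverse complement CGTCA, and to the E-box CACGTG, which do not overlap here.
Tac1: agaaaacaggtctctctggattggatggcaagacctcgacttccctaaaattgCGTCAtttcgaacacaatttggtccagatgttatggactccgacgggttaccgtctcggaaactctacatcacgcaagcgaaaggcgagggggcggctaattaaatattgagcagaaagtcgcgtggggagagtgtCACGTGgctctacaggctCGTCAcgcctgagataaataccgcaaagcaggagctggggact
Drd2: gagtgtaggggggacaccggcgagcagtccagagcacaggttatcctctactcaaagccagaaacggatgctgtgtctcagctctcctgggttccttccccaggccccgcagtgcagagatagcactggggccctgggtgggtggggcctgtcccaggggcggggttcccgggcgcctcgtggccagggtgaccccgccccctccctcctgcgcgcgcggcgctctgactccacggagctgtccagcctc
Tac1 held 2 half-sites, starting 197 and 43 bases before the start, and 1 E-box starting 61 bases before it. The Drd2 window held neither motif. Searched on both strands in the same 250 bases, the half-site was in 17.8% of 32851 RefSeq promoter windows and the E-box in 6.0%. These matches describe letters and not sites of binding.

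The brain arrays differed before any scaling. The 95th percentile of non-normalized intensity was 690.4 to 841.9 in Hmgn2-/- arrays and 678.1 to 1186 in C57BL/6 wild types, and 960.2 to 1139 in Hmgn1-/-n2-/- arrays and 972.5 to 1218 in C57BL/6J wild types. Hmgn2 averaged 4.58 ± 0.14 in Hmgn2-/- and 10.53 ± 0.16 in C57BL/6 wild types, and 4.90 ± 0.14 in Hmgn1-/-n2-/- and 10.49 ± 0.11 in C57BL/6J wild types (normalised log2 level, SD, n = 4 each). The Hmgn1 probe averaged 10.41 ± 0.09 in arrays labelled Hmgn1-/-n2-/- and 10.64 ± 0.05 in C57BL/6J wild types, so it did not check that part of the label. The sources used here do not say whether this probe lies in the deleted part. Replicate 1 of Hmgn2-/-, replicate 2 of the C57BL/6 wild types and replicate 1 of Hmgn1-/-n2-/- had low correlation with the other arrays, with a median r of 0.960, 0.966 and 0.976.

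The members were measured above background in brain. All 7 probes passed the filter, a detection p under 0.01 on at least 4 of the 16 brain arrays, and 6 of them were detected on all 16. The dim Ppp1r1b probe ILMN_1253473 was detected on 8, being 3 Hmgn2-/-, 4 C57BL/6 wild-type, 0 Hmgn1-/-n2-/- and 1 C57BL/6J wild-type arrays. In non-normalized intensity Tac1 had a median of 617.96 over brain arrays, against 97.54 in liver, 104.9 in spleen and 111.4 in thymus, and it was detected on 0 of 16 arrays of each of these organs. Drd2 had a median of 163 in brain and was also detected on 0 of 16 arrays in liver, spleen and thymus. Pde10a stood less apart, with a median of 139.66 in brain, 122.41 in spleen and 122.1 in thymus. It was detected on 11 of 16 spleen, 12 of 16 thymus and 1 of 16 liver arrays. Detection in brain does not separate striatum from other regions.

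**Figure D1:**
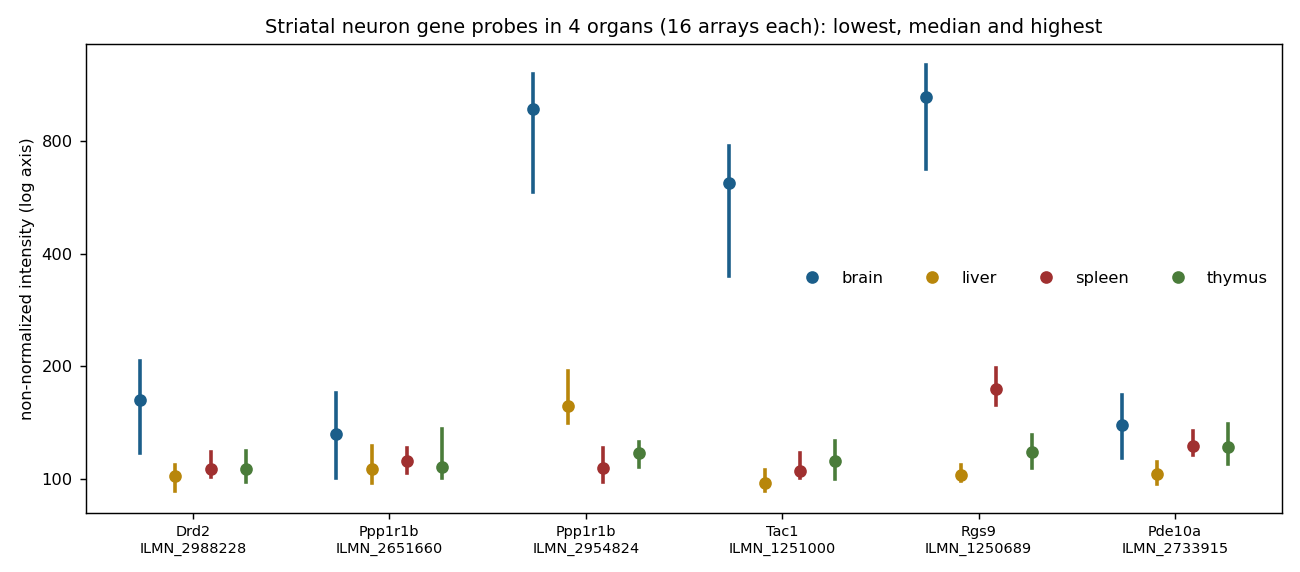
Non-normalized intensity (log axis) of the 6 member probes detected on all 16 brain arrays, in brain, liver, spleen and thymus (16 arrays each); points are medians and lines run between the lowest and highest array. Tac1 is at 349 to 776 in brain and at 92.96 to 126 in the other organs, and Rgs9 stands at 157 to 198 in spleen.

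Between Hmgn2-/- and C57BL/6 wild-type brains none of the 7 probes passed the test (limma, adjusted p under 0.05 over 13156 probes), where 0.0152% of all probes did. At an unadjusted p under 0.05 none of the 7 passed either, where 2.71% of all probes did. Differences of the 7 probes lay between -0.11 and 0.12 on the log2 scale, and the groups overlapped for all 7, where 1.09% of all probes did not overlap. In bulk brain RNA, fewer striatal cells and less RNA per cell cannot be told apart.

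Drd2, the D2 receptor of indirect-pathway neurons, was at 6.19, 6.30, 6.00 and 5.71 in Hmgn2-/- arrays and at 6.18, 6.00, 6.33 and 6.14 in C57BL/6 wild types (normalised log2 level). The groups overlapped, and replicate 4 of Hmgn2-/- was the lowest of the 8. The difference was -0.11 ± 0.14 (SE; limma adjusted p = 1; 95% interval -0.41 to 0.18), and it was 0.00 without that array.

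Tac1, the substance P precursor, was at 8.39, 9.10, 8.86 and 8.94 in Hmgn2-/- arrays and at 9.07, 8.56, 8.89 and 8.87 in C57BL/6 wild types. The lowest value of each group came from an array with low correlation with the rest, and the groups overlapped. The difference was -0.03 ± 0.14 (SE; limma adjusted p = 1), and it was 0.12 without replicate 1 of Hmgn2-/-.

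For Ppp1r1b, the bright probe ILMN_2954824 was at 9.38, 9.40, 9.69 and 9.62 in Hmgn2-/- arrays and at 9.62, 9.59, 9.28 and 9.56 in C57BL/6 wild types. The values interleaved, with a difference of 0.01 ± 0.12 (SE; limma adjusted p = 1). Rgs9 was at 9.83, 9.72, 9.77 and 9.70 in Hmgn2-/- arrays and at 9.75, 9.89, 9.65 and 9.64 in C57BL/6 wild types. The interval for Rgs9 was the narrowest of the 7 probes, -0.18 to 0.22 around 0.02. Pde10a was at 6.30, 5.72, 5.67 and 5.56 in Hmgn2-/- arrays and at 5.90, 6.07, 5.78 and 5.92 in C57BL/6 wild types. Replicate 1 of Hmgn2-/- was the highest of the 8 while the other 3 lay below every wild type, and the difference was -0.11 ± 0.15 (SE; limma adjusted p = 1). Without that array it was -0.27 (limma adjusted p = 0.995). The dim Ppp1r1b probe ILMN_2651660 was at 5.87, 5.57, 5.84 and 5.82 in Hmgn2-/- arrays and at 5.62, 5.17, 5.87 and 5.95 in C57BL/6 wild types. Its difference of 0.12 ± 0.15 (SE; limma adjusted p = 1) turned to -0.04 without replicate 2 of the wild types.

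**Figure D2:**
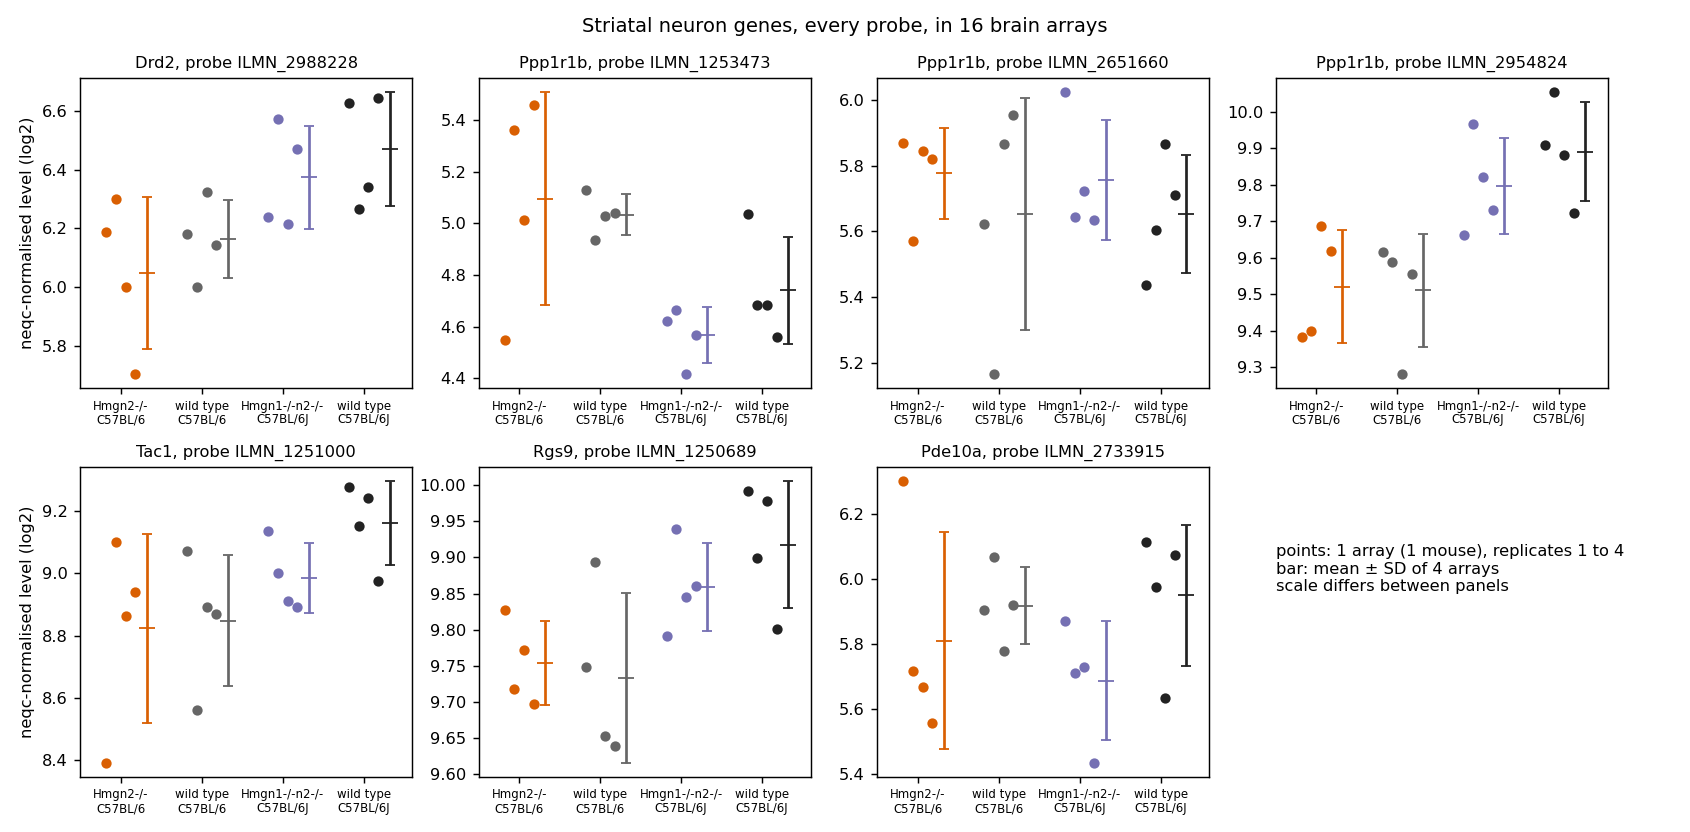
Normalised log2 level of every member probe in the 16 brain arrays, 1 panel a probe; points are arrays in replicate order and bars are mean ± SD of 4 arrays. Knockout and wild-type arrays of the same strain label overlap in every panel, and the bright Ppp1r1b probe is at 9.72 to 10.05 in C57BL/6J wild types and at 9.28 to 9.62 in C57BL/6 wild types.

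Between Hmgn1-/-n2-/- and C57BL/6J wild-type brains none of the 7 probes passed the test, where 0.175% of all probes did (limma, adjusted p under 0.05). None of the 7 had an unadjusted p under 0.05, where 7.03% of all probes did. At 1 probe a gene, the 5 genes had differences between -0.26 and -0.06, with a median of -0.10 beside 0.01 for all genes, and knockout and wild-type arrays overlapped for each, where 7.4% of all probes did not overlap.

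Pde10a had the largest of these differences. It was at 5.87, 5.71, 5.73 and 5.44 in Hmgn1-/-n2-/- arrays and at 6.11, 5.98, 5.64 and 6.07 in C57BL/6J wild types. Replicate 3 of the wild types fell among the knockouts, and the other 3 wild types lay above all 4 knockouts. The difference was -0.26 ± 0.15 (SE; limma adjusted p = 0.799; 95% interval -0.58 to 0.06).

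Tac1 was at 9.14, 9.00, 8.91 and 8.89 in Hmgn1-/-n2-/- arrays and at 9.28, 9.15, 9.24 and 8.98 in C57BL/6J wild types, a difference of -0.18 ± 0.14 (SE; limma adjusted p = 0.902). Drd2 was at 6.24, 6.57, 6.22 and 6.47 in Hmgn1-/-n2-/- arrays and at 6.63, 6.27, 6.34 and 6.64 in C57BL/6J wild types, a difference of -0.09 ± 0.14 (SE; limma adjusted p = 0.98). In both genes the ranges overlapped. The bright Ppp1r1b probe averaged 9.80 ± 0.13 in Hmgn1-/-n2-/- and 9.89 ± 0.14 in C57BL/6J wild types, and Rgs9 averaged 9.86 ± 0.06 in Hmgn1-/-n2-/- and 9.92 ± 0.09 in C57BL/6J wild types (SD, n = 4 each). The dim Ppp1r1b probe ILMN_1253473 was not well above background on any Hmgn1-/-n2-/- array, and no fold is given for it. The second dim probe, ILMN_2651660, differed by 0.10 ± 0.15 (SE; limma adjusted p = 0.983), with a sign opposite to that of the bright probe.

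The change in Hmgn1-/-n2-/- minus the change in Hmgn2-/- was also fitted. None of the 7 probes passed, where 0.0076% of all probes did, and the differences of the 6 probes detected on all 16 arrays lay between -0.155 and 0.02 (limma, lowest adjusted p = 0.988). This test does not show that both knockouts act alike, since its interval for Tac1 ran from -0.58 to 0.27.

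**Figure D3:**
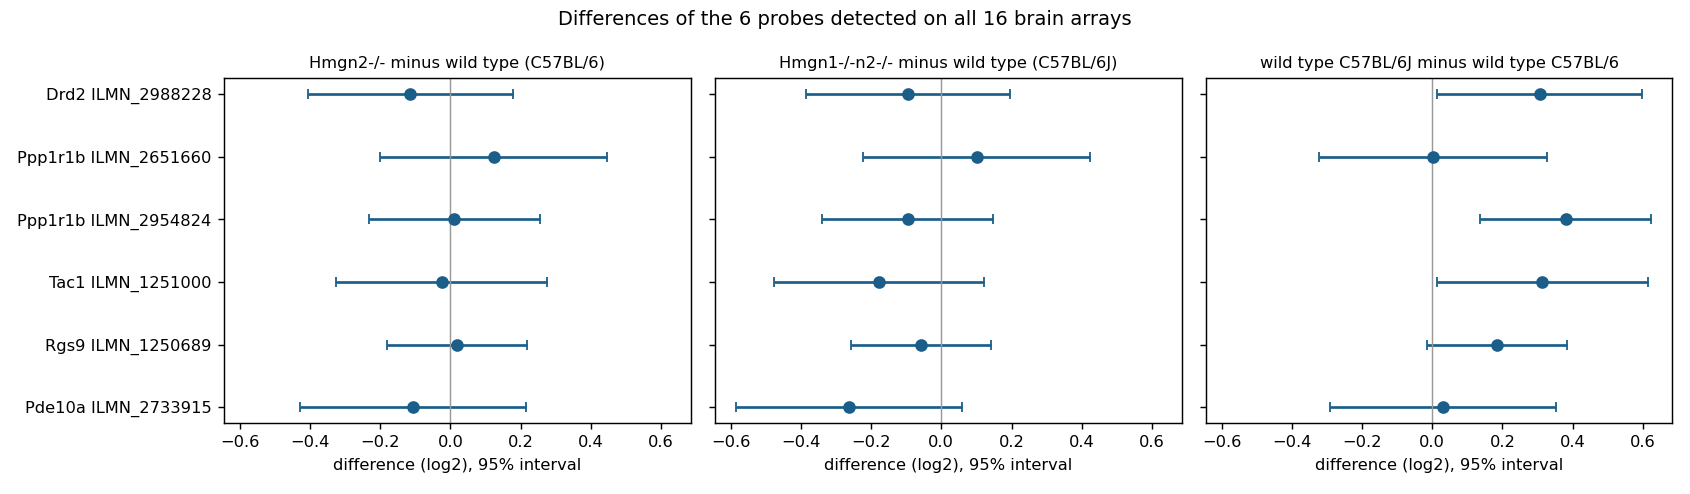
Log2 differences with 95% intervals for the 6 member probes detected on all 16 brain arrays, in 3 comparisons. Every interval of both knockout comparisons includes 0, and in the wild-type comparison the bright Ppp1r1b probe lies at 0.38 with an interval of 0.14 to 0.62.

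The wild types of both strain labels were then compared, which asks how far the members differ without a knockout. This comparison shares the C57BL/6 wild types with the Hmgn2-/- comparison and the C57BL/6J wild types with the Hmgn1-/-n2-/- comparison. Strain label and any batch cannot be told apart. None of the 7 probes passed the test, where 1.71% of all probes did (limma, adjusted p under 0.05). At an unadjusted p under 0.05, 3 of the 7 passed, the bright Ppp1r1b probe, Tac1 and Drd2, all 3 with higher values in C57BL/6J, where 17.5% of all probes passed in either direction.

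The bright Ppp1r1b probe was at 9.91, 10.05, 9.88 and 9.72 in C57BL/6J wild types and at 9.62, 9.59, 9.28 and 9.56 in C57BL/6 wild types. It was the 1 probe of 7 whose groups did not overlap, and 10.1% of all probes did not overlap. The difference was 0.38 ± 0.12 (SE; 1.30-fold; limma adjusted p = 0.0928). The call depended on the fit: adjusted p was 0.0372 with array weights (difference 0.43), 0.0484 without the 3 arrays of low correlation (difference 0.41) and 0.00522 with median scaling (difference 0.72). The second Ppp1r1b probe detected on all 16 arrays, ILMN_2651660, differed by 0.00 ± 0.15 (SE; limma adjusted p = 0.998), and whether it differed from the bright probe was not tested. ILMN_1253473 was detected on 1 of 4 C57BL/6J wild types and on 4 of 4 C57BL/6 wild types, and no fold is given for it.

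Tac1 was at 9.28, 9.15, 9.24 and 8.98 in C57BL/6J wild types and at 9.07, 8.56, 8.89 and 8.87 in C57BL/6 wild types, a difference of 0.31 ± 0.14 (SE; limma adjusted p = 0.262). Drd2 was at 6.63, 6.27, 6.34 and 6.64 in C57BL/6J wild types and at 6.18, 6.00, 6.33 and 6.14 in C57BL/6 wild types, a difference of 0.31 ± 0.14 (SE; limma adjusted p = 0.261). The groups overlapped in both genes. Rgs9 differed by 0.18 ± 0.10 and Pde10a by 0.03 ± 0.15 (SE; limma adjusted p = 0.327 and 0.936). With median scaling the median of all probes moved by 0.19 in this comparison, and Tac1 (0.61) and Rgs9 (0.55) also passed there, with limma adjusted p = 0.0198 and 0.012. That scaling gave 1521 higher and 114 lower calls among 13156 probes. The quantile-normalised values gave 108 higher (0.821% of all probes) and 117 lower (0.889%).

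The order of mean levels over the 4 groups was the same for Drd2 and Tac1, with C57BL/6J wild types highest, then Hmgn1-/-n2-/-, then C57BL/6 wild types, then Hmgn2-/-. For Drd2 the mean was 6.47 ± 0.19 in C57BL/6J wild types, 6.37 ± 0.18 in Hmgn1-/-n2-/-, 6.16 ± 0.13 in C57BL/6 wild types and 6.05 ± 0.26 in Hmgn2-/- (SD, n = 4 each). Neighbours in this order differed by less than the sum of their SDs. The bright Ppp1r1b probe and Rgs9 also had C57BL/6J wild types highest, then Hmgn1-/-n2-/-, but Hmgn2-/- stood just above C57BL/6 wild types. In the bright Ppp1r1b probe the mean was 9.52 in Hmgn2-/- and 9.51 in C57BL/6 wild types. For Rgs9 it was 9.75 in Hmgn2-/- and 9.73 in C57BL/6 wild types. Pde10a did not follow this order, with its lowest mean in Hmgn1-/-n2-/- (5.69 ± 0.18).

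The members differed in how steady they were among mice of a group. Rgs9 had a within-group SD of 0.0849 on the log2 scale, at percentile 1.1 of all probes tested and percentile 3 of the 1000 probes nearest in level. The bright Ppp1r1b probe had 0.144, and Tac1 (0.205), Drd2 (0.196) and Pde10a (0.227) lay near the median of all probes, 0.207.

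A shared rise and fall of the members from mouse to mouse was not detected, and 16 arrays could miss one. Over the 10 pairs of the 5 genes, with group means removed in 16 arrays, Pearson r ran between -0.547 (Tac1 and Pde10a) and 0.407 (Ppp1r1b and Rgs9). None of the 10 passed an exact two-sided permutation test within groups, with the lowest Benjamini-Hochberg adjusted p at 0.587 for Pearson r and 0.732 for Spearman rho. For Tac1 and Pde10a the Spearman rho was -0.359, and r was -0.825 in the arrays labelled C57BL/6 and 0.129 in those labelled C57BL/6J. Without the 2 arrays farthest from the median of Tac1, r was -0.0709.

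A mean over the 5 genes was taken as a deviation from the 16-array mean, with the 3 Ppp1r1b probes averaged first, the one near background included. It was highest in replicate 1 of the C57BL/6J wild types (0.24) and lowest in replicate 4 of Hmgn2-/- (-0.15). It averaged -0.08 ± 0.06 in Hmgn2-/- and -0.05 ± 0.05 in C57BL/6 wild types, and -0.003 ± 0.067 in Hmgn1-/-n2-/- and 0.13 ± 0.07 in C57BL/6J wild types (SD, n = 4 each). Of 45 other striatal projection neuron genes on the array, 34 were tested and none passed in any of the 4 comparisons. Their median difference was 0.05 in Hmgn2-/-, -0.07 in Hmgn1-/-n2-/- and -0.03 between wild types, beside 0.01, 0.01 and 0.03 for all genes. The smallest p-values among them belonged to Scn4b (-0.19 ± 0.10), a sodium channel subunit, in Hmgn2-/-, to Meis2 (-0.35 ± 0.11), a homeobox transcription factor, in Hmgn1-/-n2-/-, and to Dclk3 (0.36 ± 0.10), a kinase, between wild types (log2 difference, SE; limma adjusted p = 1, 0.423 and 0.0645). In the wild-type comparison the members' median at 1 probe a gene was 0.31, while the striatal mean over all probes differed by 0.17 and at 1 probe a gene by 0.243. Other lists also differed in sign and size between the same wild types. Medians above 0 included those of the hippocampus list (0.13, 11 of 17 genes above 0), the cortex list (0.10, 10 of 17) and the pituitary list (1.63, 3 of 4). The olfactory bulb and hypothalamus lists had medians of 0.08 each. Medians below 0 included those of the lists that follow. No gene of the general GABA neuron, cerebellum or oligodendrocyte lists passed the test. The general GABA neuron list had a median difference of -0.19, opposite in sign to the members, with 4 of 4 tested genes below 0. The cerebellum list had a median difference of -0.23, with 16 of 21 genes below 0, and the oligodendrocyte list one of -0.15, with 11 of 14 below 0. The astrocyte list mean was -0.08 to -0.03 in C57BL/6J and 0.05 to 0.09 in C57BL/6 wild types, and the oligodendrocyte list mean was -0.14 to -0.03 in C57BL/6J and -0.01 to 0.16 in C57BL/6 wild types. Neither of these overlapped. The striatal mean over all probes did not overlap either, at 0.08 to 0.24 in C57BL/6J and -0.11 to 0.01 in C57BL/6 wild types. All other list means overlapped between these wild types. Among single probes, 10.1% did not overlap in this comparison, which is not a like share for means over several genes. The part of the astrocyte and oligodendrocyte lists in the members' values was not tested.

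Lists of other regions stood apart in single arrays. The pituitary list, 4 tested genes of 13 on the array, stood at 2.99 in replicate 3 of Hmgn1-/-n2-/-, at 3.73 and 1.11 in replicates 1 and 3 of the C57BL/6J wild types, and between -1.14 and 0.17 in the other arrays of either strain label. Growth hormone (Gh) reached 11.97 in that Hmgn1-/-n2-/- array and 12.93 and 8.71 in those wild types. Replicate 1 of the C57BL/6J wild types, highest in pituitary genes, was also highest in the striatal mean. Replicate 3 of Hmgn1-/-n2-/- had a striatal mean of -0.05, and replicate 3 of the C57BL/6J wild types 0.08, the lowest of its group. With group means removed, the pituitary list and the striatal mean correlated at r = 0.245. Without the 3 arrays high in pituitary genes the striatal mean differed by -0.08 between Hmgn1-/-n2-/- and C57BL/6J wild types, against -0.13 with them, and by 0.14 between the wild types, against 0.17. The hypothalamus list was low in replicate 1 of Hmgn2-/- (-0.76) and replicate 2 of the C57BL/6 wild types (-0.55), the arrays in which Tac1 was lowest. The part of these arrays in the members' values was not tested beyond leaving them out. Between wild types, 5 of 253 tested genes of the other lists passed (1.98%), a share near the 1.71% over all probes: Wfs1 (0.59 ± 0.13) and Cldn2 (0.54 ± 0.13) were higher in C57BL/6J, and Aldh1a1 (-0.68 ± 0.14), Nefh (-0.55 ± 0.13) and Nefm (-0.50 ± 0.12), of which the last pair are neurofilament subunits, were lower (log2 difference, SE; limma adjusted p between 0.0151 and 0.0427).

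As a description, each member was set against 19 lists with group means removed, giving 95 correlations, and the mean over the 5 genes was set against the same 19 lists. Those named here were chosen after all of these values were seen. For each list, the 2 farthest arrays were those farthest from the median of that list's own values, so they differed between lists. Tac1 ran with the hypothalamus list at r = 0.808 (Spearman rho = 0.679), which became 0.458 without the 2 farthest arrays, so part of that relation rests on them. It was 0.928 in the arrays labelled C57BL/6 and 0.158 in those labelled C57BL/6J. Tac1 ran against the cerebellum list at r = -0.824, and at -0.795 without the 2 farthest arrays. Rgs9 ran against the immediate early gene list at r = -0.835, and at -0.74 without the 2 farthest arrays of that list. The astrocyte list ran against the striatal mean at r = -0.755 (Spearman rho = -0.709), at -0.675 without the 2 farthest arrays, at -0.59 in the arrays labelled C57BL/6 and at -0.845 in those labelled C57BL/6J. With the mean at 1 probe a gene it was -0.605. The 16 points share scaling and tissue pieces, and no p is given.

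Among 9152 other genes, the one most like the striatal mean was Med15 (r = 0.89 over 16 arrays with group means removed), followed by Slc6a12 (0.741), Cfap20dc (0.723) and Entpd2 (0.721). The most opposed were Efcab2 (-0.765) and Poglut2 (-0.754). With the mean at 1 probe a gene, r was 0.846 for Med15, 0.614 for Slc6a12, 0.767 for Cfap20dc, 0.493 for Entpd2, -0.649 for Efcab2 and -0.731 for Poglut2. The genes named are the ends of a ranking of 9152 genes over 16 arrays, where high r can arise by chance, and no p is given. None of them is a listed striatal gene.

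**Figure D4:**
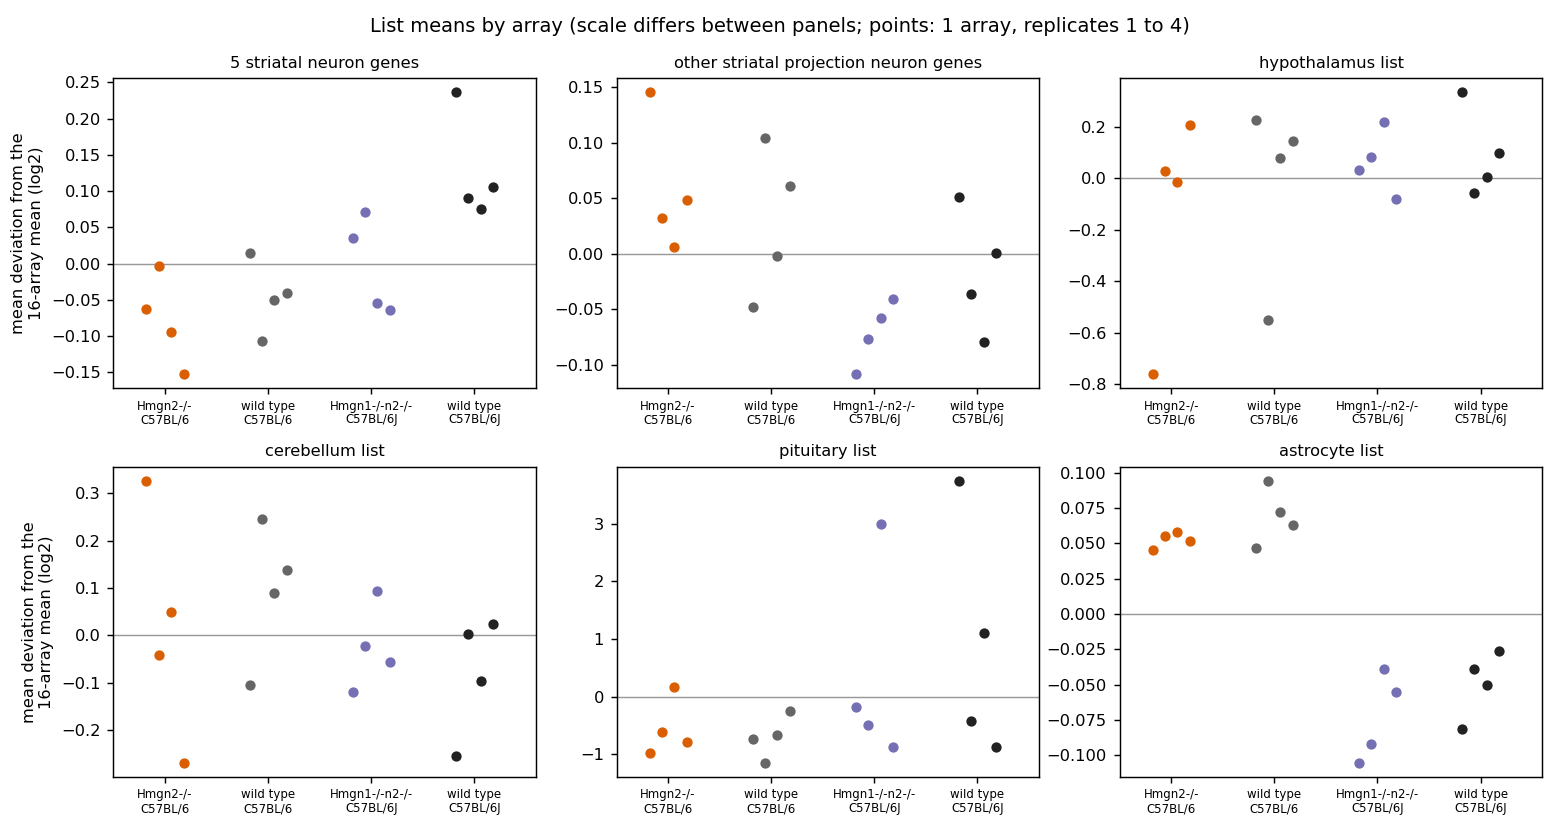
Mean deviation from the 16-array mean (log2) of the 5 members, the other striatal projection neuron genes and 4 region or cell lists; points are arrays in replicate order. The member mean spans -0.15 to 0.24, whereas the pituitary list reaches 3.73 in 1 C57BL/6J wild-type array and the hypothalamus list falls to -0.76 in 1 Hmgn2-/- array.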

How the data were processed

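Brain RNA was read on Illumina bead arrays. The non-normalized intensity values and detection p-values were deposited by the authors from GenomeStudio 2011.1, per the submitters' processing notes. The authors' deposited normalized intensity values were used only as an alternative. Probes were named through GEO's platform annotation with symbols updated through RefSeq: 23978 probes had 1 gene symbol, 0 several and 1719 none. Intensities were background-corrected and quantile-normalised over the 16 brain arrays with neqc (limma 3.58.1, R 4.3.3; offset 16), which sets background from the detection p-values. Probes with detection p under 0.01 on at least 4 arrays were kept (13156 probes, 9157 genes). Limma's moderated test used 4 group means that share 1 estimate of spread, with Benjamini-Hochberg adjustment over all probes tested and a threshold of 0.05. With 4 arrays a group, precision is set by their number. The code was tested on simulated data.

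The members and lists were chosen with earlier results of these data known. Named were every member probe, Hmgn1 and Hmgn2, up to 3 genes of another list by smallest p, and the genes most and least correlated with the striatal mean. Alternatives changed background correction, scaling, filter, probe choice, arrays, weights, variance prior and replicate block.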

Additional observations from a re-analysis of the deposited data

Results flagged for a closer look

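Among 32 sets of 4 arrays (7 probes and the striatal mean in 4 groups), 1 had an array far from the other 3, and chance flags about 1 in 20. The dim Ppp1r1b probe ILMN_2651660 was at 5.57 in replicate 2 of Hmgn2-/-, against 5.82 to 5.87 in the other 3 arrays of that group.

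Outside brain, the bright Ppp1r1b probe ILMN_2954824 was detected on 16 of 16 liver arrays, at a median non-normalized intensity of 157 in liver, 106.6 in spleen and 117.3 in thymus. Rgs9 was detected on 16 of 16 spleen and 6 of 16 thymus arrays, at a median of 174 in spleen, 102 in liver and 118 in thymus. Their source was not tested.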

How the results depend on the processing

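No member probe passed in either knockout comparison or in their difference under any alternative run (limma, lowest adjusted p = 0.164, for Pde10a in Hmgn1-/-n2-/- with array weights). Between wild types the number of member probes called was 3 with median scaling, 1 with array weights, 1 without the arrays of low correlation, and 0 otherwise. The striatal mean difference between wild types became 0.375 with median scaling and 0.243 with 1 probe a gene. Both settings that leave out arrays by correlation or by the pituitary list were chosen after seeing the data. Of 821 member values under alternatives, 44 changed sign, none of them called, and these are counted here and not as reversals, which was a choice of reading. Many of the 821 could not change sign. Settings of filter, variance prior or replicate block, and arrays dropped from groups outside a comparison, leave its estimates as they were. The share that changed sign therefore does not measure how steady the signs are.

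Over all probes, the Hmgn2-/- count of 2 became 1 with the deposited normalized values, no filter, detection on all 16 arrays, only the 8 arrays, and the high-pituitary arrays left out. The Hmgn1-/-n2-/- count of 23 became 11 with detection on all 16 arrays, 13 with 1 probe a gene, 628 with array weights, 56 without the low-correlation arrays and 5 without the high-pituitary arrays. The count for the difference of changes, 1, became 3 with median scaling, 12 with array weights, and 0 with no background correction, normexp, 64-array scaling, deposited values, no filter, detection on all 16 arrays and either set of arrays left out. The wild-type count of 225 became 1635 with median scaling, 141 with 1 probe a gene, 107 with only the 8 arrays, 694 with array weights, 860 without the low-correlation arrays and 15 without the high-pituitary arrays. Leaving out 1 array at a time gave 1 to 3, 13 to 39, 0 to 7 and 85 to 503 calls for these 4 comparisons, and 0 member probes each time. The cause was not tested.

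Replicate numbers were not seen to pair the samples. With group means removed from every tested probe, same-numbered arrays correlated at -0.605 to 0.311 in Hmgn2-/- with its wild types. In Hmgn1-/-n2-/- with its wild types these correlations were -0.353 to 0.051. With the replicate block the counts were 1, 14, 0 and 29, with 0 member probes. The wild-type count under the block was first computed with a coding that compared only the arrays numbered 1 and gave 1 call; the coding was corrected after that value was seen.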
